A study of Mus musculus with 12 samples.

Results

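The Fat1 locus of mouse chromosome 8 was examined for trimethylated lysine 9 of histone H3 (H3K9me3) in the authors' comparison of Tex19.1-/- and Tex19.1+/- embryonic stem cells. Its members are the regions of the deposited table that overlap the window of 44.92 to 45.06 Mb in mm10, which gave 10 of 68291 regions. The locus was selected on the log2 fold changes and p-values of that table, so they are given below as a description and carry no test of their own. The regions of the 1 Mb on either side, 52 in number, serve as the comparison.

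The study immunoprecipitated H3K9me3 chromatin from Tex19.1-/- and from Tex19.1+/- cells derived from the E14Tg2a line (129/Ola background, passages 12 to 20). Each genotype has 3 immunoprecipitated and 3 input libraries, 12 in all. The heterozygous cells that serve as control carry the mutant allele too. Groups were read from the titles, because the genotype field contradicts the title in 6 of the 12 libraries. Whether the libraries of a genotype came from separate cultures or from a single clone is not given in the sources used here. The cell type could not be checked against marker genes, since no RNA was measured in the table. The nearest region to Tex19.1 lies 28126 bp away, so no value checks the genotype at the targeted gene.

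H3K9me3 is a mark of silent chromatin. In embryonic stem cells it is deposited over retrotransposons, zinc finger gene clusters and the methylated alleles of imprinted genes. Fat1 encodes a very large atypical cadherin, a cell surface protein of a family whose fly members, Fat and Fat-like, act in tissue growth and planar polarity. Mammalian FAT1 is known for its part in cell adhesion, in actin organisation at cell contacts through Ena/VASP proteins and in signalling to the Hippo kinases and the effector YAP1. TEX19.1 is a mammal-specific protein of germ cells and pluripotent cells, where it acts against retrotransposons.

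Values below are the log2 fold changes of the authors' deposited table. Each has a standard error (SE) derived from the deposited p-value and an average signal in CPM, a read count scaled within each library. Which genotype was subtracted from which is not stated, so the direction of a value is unknown and only its sign is given. The table holds no values of single libraries, and total reads per library were not analysed here. The derived errors rest on the authors' model and may leave out variation between libraries. A region counts as called at a deposited FDR, the p-value adjusted over all regions, below 0.05. Of all regions, 192 or 0.281% were called, with 0.192% called positive and 0.0893% called negative.

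RefSeq places the body of Fat1 at chr8:44933100-45052257 (GRCm38.p6, the assembly that mm10 names), a length of 119158 bp. Of the 10 regions, 7 overlap that body, 2 lie before it and 1 lies after it. The promoter table holds a single window for Fat1, around a start site at position 44950208 on the plus strand, 17108 bp inside the annotated body. This listed start site is not the annotated gene start, over which no region lies, the nearest being 854 bp away. Whether transcription begins at the listed site in these cells was not tested. That window lies whole within the strongest H3K9me3 region of the locus. The positions of exons and repeats were not analysed here, nor were other start sites of the gene.

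The windows listed as promoters of the Fat genes are printed, each of 300 bases with the listed start site at base 251. They show how the Fat1 window inside the marked region compares with those of its paralogs. Sequences are from RefSeq (GRCm38.p6), 5′ to 3′ on the strand of the gene, with CG dinucleotides in capitals.
Fat1, chr8:44949958-44950257, plus strand: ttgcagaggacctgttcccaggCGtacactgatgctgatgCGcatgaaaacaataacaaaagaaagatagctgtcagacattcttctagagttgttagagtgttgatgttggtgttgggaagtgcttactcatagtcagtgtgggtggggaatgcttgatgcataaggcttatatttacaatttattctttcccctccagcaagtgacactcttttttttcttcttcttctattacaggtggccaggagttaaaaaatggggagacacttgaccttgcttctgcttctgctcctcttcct
Fat2, chr11:55312208-55312507, minus strand: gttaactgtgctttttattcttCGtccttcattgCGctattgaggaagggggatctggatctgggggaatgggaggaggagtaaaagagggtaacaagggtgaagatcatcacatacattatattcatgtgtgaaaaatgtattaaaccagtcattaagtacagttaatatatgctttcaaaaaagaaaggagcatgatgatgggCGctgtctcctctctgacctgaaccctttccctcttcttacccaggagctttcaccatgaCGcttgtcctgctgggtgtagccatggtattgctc
Fat3, chr9:16502005-16502304, minus strand: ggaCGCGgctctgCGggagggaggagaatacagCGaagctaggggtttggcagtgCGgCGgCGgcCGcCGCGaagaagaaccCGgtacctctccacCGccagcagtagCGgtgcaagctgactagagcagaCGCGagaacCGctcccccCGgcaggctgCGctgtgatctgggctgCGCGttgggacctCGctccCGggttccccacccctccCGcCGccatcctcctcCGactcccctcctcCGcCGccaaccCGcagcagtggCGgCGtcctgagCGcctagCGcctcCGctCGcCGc
Fat4, chr3:38886690-38886989, plus strand: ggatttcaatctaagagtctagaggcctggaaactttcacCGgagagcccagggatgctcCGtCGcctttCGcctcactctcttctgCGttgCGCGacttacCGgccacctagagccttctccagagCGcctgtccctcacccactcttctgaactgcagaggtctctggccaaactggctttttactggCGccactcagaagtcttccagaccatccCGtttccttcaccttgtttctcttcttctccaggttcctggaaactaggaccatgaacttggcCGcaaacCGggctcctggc

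The Fat1 window holds 2 CG dinucleotides, against 4 in Fat2, 35 in Fat3 and 13 in Fat4, and 42.7% of its bases are G or C. Over all 32851 promoter windows of the table the median was 7, and 23.3% held no more than Fat1. Among windows that overlap an H3K9me3 region, as that of Fat1 does, the median was 4, and 32.2% held no more. Its longest run of C and T spans bases 210 to 231, and the first ATG after the listed start site begins at base 257. Because that site lies 17108 bp inside the annotated gene, the window need not be a promoter. Whether it is one, or lies at the edge of an inner exon, was not tested. The Fat2 and Fat4 windows have a like layout. Their C and T runs span bases 229 to 244 and 235 to 249, and their first ATGs begin at bases 262 and 271. In Fat3 the run spans bases 233 to 244, and no ATG follows the listed site. The windows may thus differ in kind, so their CG counts need not compare promoters. The other Fat windows do not overlap an H3K9me3 region. The nearest region lay 2613 bp from the window of Fat2, 57265 bp from that of Fat3 and 2976 bp from that of Fat4.

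The strongest region of the locus, chr8:44948650-44955099, covered 6449 bp, from 1558 bp before the listed Fat1 start site to 4891 bp after it. Its log2 fold change, taken from the authors' deposited table, was 1.04 (derived SE 0.12, 95% interval 0.80 to 1.27), and its FDR was 1.21e-13. This is a 2.05-fold difference in signal between the genotypes, with an interval of 1.74 to 2.42. Its average signal was 63.0 CPM, and 3.51% of all regions had a higher log2 CPM. Only 1.18% of regions were wider, while 80.2% had more signal per kb than its 9.77 CPM per kb. It was thus a broad region of low density for this table.

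The second strongest region, chr8:45008196-45012202, lay 53097 bp further into the gene and had almost the same signal, 56.4 CPM over 4006 bp. By the authors' deposited table its log2 fold change was 0.19 (derived SE 0.12, 95% interval -0.05 to 0.42) with an FDR of 1. Both regions lie in Fat1, with like signal and like derived errors, and the value of the strongest is larger by 0.85 on the log2 scale, given here as a description. Together they held 71.4% of the CPM of the 10 regions.

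**Figure D1:**
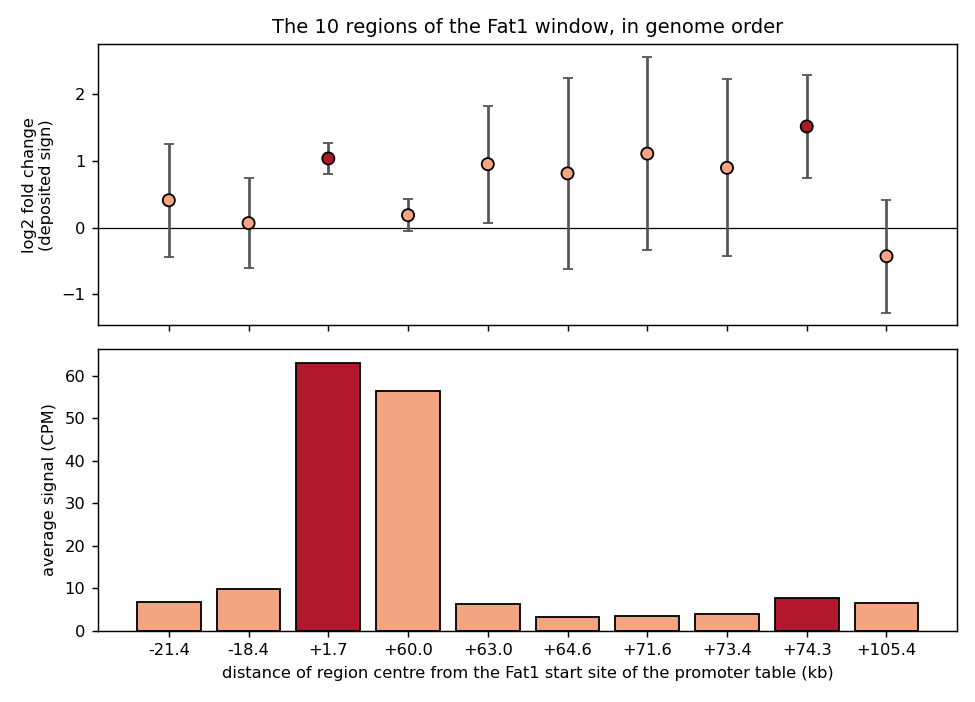
The 10 regions of the Fat1 window in genome order, labelled by the distance of their centre from the listed Fat1 start site in kb. Upper panel, deposited log2 fold change with its derived 95% interval; lower panel, average signal in CPM; dark red marks regions with a deposited FDR below 0.05. The regions at +1.7 and +60.0 kb carry most of the signal, but the first stands at 1.04 and the second at 0.19.

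The other 5 regions of the gene body were weak and all followed the second strongest one within a stretch of 16905 bp that the 6 regions share. The most positive of them, chr8:45023892-45025101, stood at 1.51 on the log2 scale (derived SE 0.39, 95% interval 0.74 to 2.29) with FDR = 0.0448 per the authors' deposited table. That is a 2.86-fold difference with an interval of 1.67 to 4.88, on an average signal of 7.60 CPM over 1209 bp. This call was lost without chromosomes 11 and 16, whose medians were 0.28 and 0.32 (adjusted p = 0.0671), at an FDR below 0.01, under Holm adjustment (adjusted p = 1) and with the error typical of its signal (adjusted p = 0.110). Its neighbour only 96 bp before it, chr8:45023329-45023796, had 0.90 (derived SE 0.68, 4.04 CPM, FDR 1) in the authors' deposited table.

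Further weak regions lay between these and the second strongest one. The region chr8:45012872-45013642 had 0.95 in the authors' deposited table (derived SE 0.45, 6.32 CPM) with an unadjusted p of 0.0329 and an FDR of 0.958. The region chr8:45021644-45022017 had 1.11 (derived SE 0.74, 3.44 CPM) and chr8:45014550-45014974 had 0.81 (derived SE 0.73, 3.19 CPM), each with an FDR of 1. The 5 weak regions thus lay between 0.81 and 1.51, all above the stronger region that they adjoin, but the intervals of 3 of them span 0. At a log2 CPM of 2 to 3 the median derived SE over the table was 0.49 and the smallest called change was 1.51, the region in Fat1 itself. At 1 to 2 it was 0.70, and 0 of 7503 regions were called, so that a change of the size seen here was not detectable there at this depth.

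The 3 regions outside the gene body were not called. Before the annotated gene start, chr8:44928566-44929134 had 0.41 in the authors' deposited table (derived SE 0.43, 6.85 CPM, 3966 bp away) and chr8:44931438-44932246 had 0.07 (derived SE 0.34, 9.89 CPM, 854 bp away). After the gene end, chr8:45055362-45055862 had -0.43 (derived SE 0.43, 6.52 CPM, 3105 bp away). Each had an FDR of 1, and each derived SE here was read from regions of like signal. The nearest regions outside the window had 0.16 before it (chr8:44837231-44837811, derived SE 0.43) and 0.21 after it (chr8:45061415-45062467, in the noncoding gene AY512931, derived SE 0.28) in the authors' deposited table. The window's last region and its neighbour outside thus differed in sign, with intervals that each span 0.

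In all, 9 of the 10 regions were positive and 1 was negative, and 2 were called, both positive, where 0.192% of all regions were. These counts describe the values by which the locus was chosen. The median log2 fold change was 0.85 over the 10 regions and 0.95 over the 7 of the gene body, all of which were positive, against -0.01 over all regions.

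Values in the flanks were spread around 0. Over their 52 regions the median log2 fold change was -0.10, with 24 positive and 28 negative, 0 called by the authors' FDR and 2 with an unadjusted p below 0.05, a level that 4.74% of all regions reached. The 19 regions on the side before Fat1 had a median of -0.15 and the 33 after it 0.04. Chromosome 8 as a whole had a median of -0.08 over 3517 regions, 39.7% of them positive, and 4 calls, 3 positive and 1 negative. Fat1 holds 2 of those 3 positive calls. The region over the listed start site had the smallest p-value of the chromosome and the fifth smallest of the table.

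Strong regions of the flanks were mostly negative, as were the regions of chromosome 8 as a whole, of which 39.7% were positive. The strongest, chr8:45440905-45450328, lies 29830 bp from Tlr3, a receptor for double-stranded RNA, and had -0.13 in the authors' deposited table (derived SE 0.08, 129.4 CPM). The next, chr8:44743971-44751158 in the noncoding gene Gm30397, had -0.18 (derived SE 0.09, 105.2 CPM), and chr8:45488540-45492438, which lies 15350 bp from the adaptor gene Sorbs2, had -0.37 (derived SE 0.11, 77.8 CPM, FDR 0.119). Of the 6 flank regions with a log2 CPM of 5 or more, 5 were negative, and the highest value was 0.39 at Snx25 (chr8:46048343-46052853, a sorting nexin gene, derived SE 0.13, FDR 0.282). None of them reached the 1.04 of the strongest Fat1 region, which has the same order of signal. The weak region chr8:45337487-45337987 in Fam149a had 1.18 (derived SE 0.60, FDR 1) in the authors' deposited table. A value like those of the weak Fat1 regions thus occurred in the flanks too. Over the 23 flank regions with a log2 CPM below 3 the median was 0.04, with 12 positive and 11 negative. The 5 such regions of the Fat1 body, in a locus chosen on these values, were all positive with a median of 0.95.

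**Figure D2:**
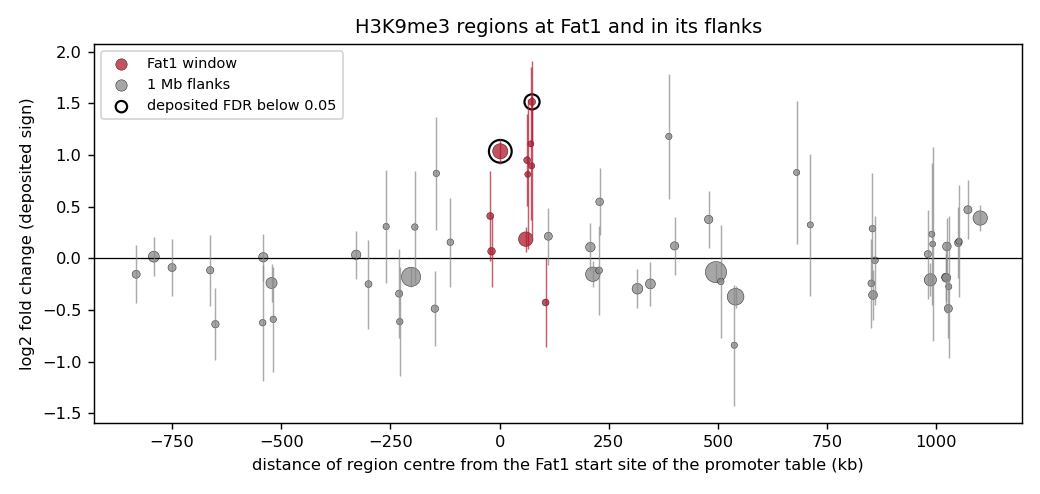
Deposited log2 fold change of the regions of the Fat1 window (red) and of its 1 Mb flanks (grey) by the distance of their centre from the listed Fat1 start site in kb. Bars are the derived SE, point area grows with CPM and rings mark a deposited FDR below 0.05. The 2 ringed regions, at 1.04 and 1.51, lie in Fat1, and the flank regions scatter around a median of -0.10.

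Among regions of like signal the value of the strongest Fat1 region stood at the end of the range. Outside chromosomes 11 and 16, 2957 regions had a log2 CPM within 0.5 of it, with a median log2 fold change of -0.08. Of these, 29 were called, a higher share than the 0.281% of all regions. Strong regions were called more often, with 43 of 5046 called at a log2 CPM of 5 to 6 and 4 of 25030 at 2 to 3. The Fat1 region was the only 1 of the 2957 at 1.04 or above, while the lowest value was -0.82. The closest in log2 fold change, with this single comparison as the measure, were regions at Hsbp1 (0.79), a heat shock factor binding protein, Gm44140 (0.73), Srrm2 (0.66), a splicing cofactor, the prion gene Prnp with Prn (0.65) and E2f3 (0.65), a cell cycle transcription factor. In the authors' deposited table each of these 5 was called, with FDR values from 4.42e-05 to 0.00339. Each exceeds 0.48, the smallest called change at a log2 CPM of 5 to 6, so these calls add little to their choice by size. For the other called region of Fat1, 20415 regions had like signal, and the highest log2 fold change was 1.54. Of those regions 3 were called, a lower share than the 0.281% of all regions.

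**Figure D3:**
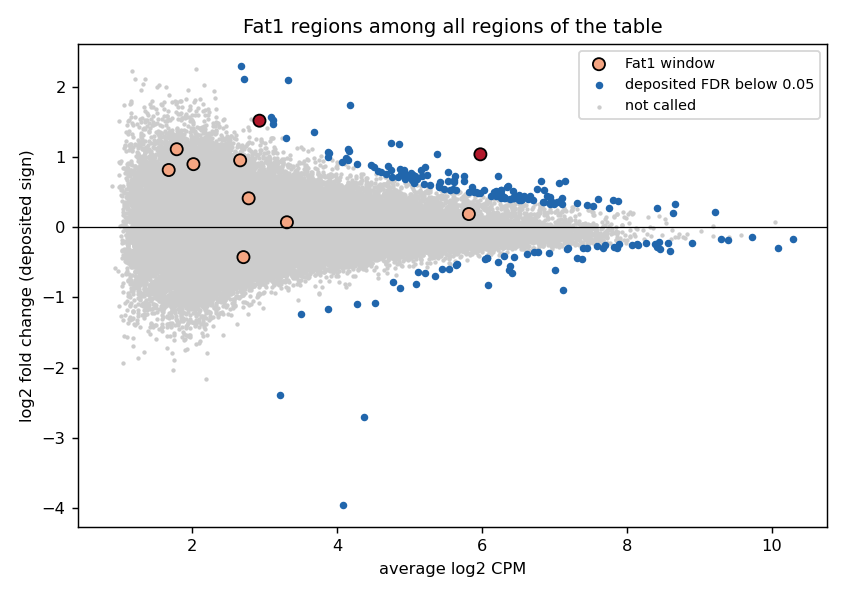
Deposited log2 fold change against average log2 CPM for all regions (grey), called regions (blue) and the 10 regions of the Fat1 window (ringed, dark red where called). The Fat1 region over the listed start site, at 1.04, is the highest of its signal outside chromosomes 11 and 16, while most other Fat1 regions lie inside the grey cloud.

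Promoter windows seldom lay in an H3K9me3 region. Of 32851 windows, 897 or 2.73% overlapped a region, and 811 regions held such a window, with a median log2 fold change of -0.0013. Of these 811 regions 19 were called, a higher share than the 0.281% of all regions. Of the calls 11 were positive and 8 negative, and Fat1 was among the positive ones. Outside chromosomes 11 and 16, 10 of 725 regions over a promoter window reached the value of Fat1, itself included, and 3 of these were called. The called ones were Fat1, Cmah (1.08, derived SE 0.23, 17.8 CPM), an enzyme of sialic acid synthesis, and Gm52691 (1.04, derived SE 0.15, 41.5 CPM) in the authors' deposited table. The Fat1 region was the strongest of the 3, at 63.0 CPM. However, the Fat1 window lies 17108 bp inside the annotated gene and need not be a promoter. No region lies over the annotated gene start, and the nearest one before it, 854 bp away, had 0.07.

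Each of the other Fat cadherins, Fat2, Fat3 and Fat4, had 4 regions within 5 kb of its body in the authors' deposited table. None of these was called, which at a share of 0.281% over all regions says little about them. The strongest, chr11:55247746-55254166 at Fat2, covered 6420 bp at 103.9 CPM and had 0.29 (derived SE 0.09, FDR 0.288), which equals the median of chromosome 11 to within 0.01. A weak Fat2 region, chr11:55309007-55309595, had 1.14 (derived SE 0.44, FDR 0.615), or 0.86 with that chromosome's median subtracted. At Fat3, chr9:16081356-16082158 had -1.09 (derived SE 0.39, FDR 0.488), and the other 3 regions lay between -0.41 and 1.34 with an FDR of 1 each. At Fat4 the 4 regions had 2.40 to 5.44 CPM and values from -0.35 to 0.40, each smaller than its derived SE.

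The wider pathway held few regions. Of 36 further genes of the Fat, Dachsous and Hippo list, 10 had a region within 5 kb, with 30 regions in all. None was called by the authors' FDR, whose smallest value was 0.288, and with 0.281% of all regions called a count of 0 is uninformative here. An unadjusted p below 0.05 was found in 4 or 13.3% of the 30, against 4.74% of all regions, 3 of them in Fat2 and 1 in Fat3. These p-values are for log2 fold changes without subtraction of a chromosome median. With the median of chromosome 11 subtracted, the 3 Fat2 regions stood at 0.01, 0.21 and 0.86 (derived SE 0.09, 0.23 and 0.44). The median log2 fold change was 0.17, with 19 positive and 11 negative, against -0.01 over all regions, and 7 of the 30 lie on chromosome 11, where the median was 0.28. Dchs2, of the Dachsous family of cadherins that pair with Fat proteins, had a region at 0.16 (derived SE 0.23). Vangl1, a planar polarity protein, had 6 regions from -0.53 to 0.49. Of the kinases and scaffolds upstream in the Hippo pathway, Stk3 had 5 regions from -0.23 to 0.30, Wwc1 had 0.18 and 0.88, Nf2 0.23 and Amotl1 1.05 (derived SE 0.62, unadjusted p 0.0872). Of the effectors, Wwtr1 (the gene of TAZ) had 0.19 and 0.23, while Yap1 and the Tead genes had no region. The Ena/VASP genes, which encode partners of FAT1 at the actin cytoskeleton, had no region either.

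**Figure D4:**
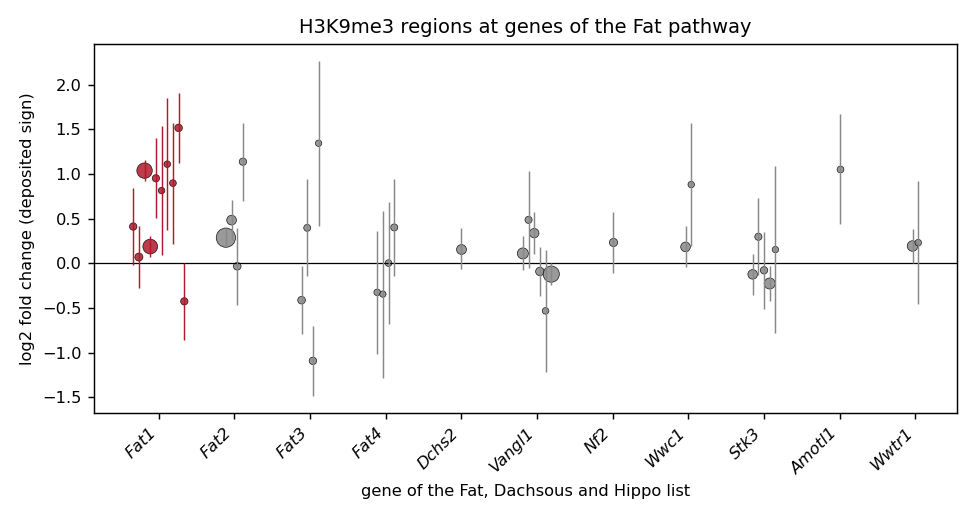
Deposited log2 fold change, with the derived SE, of each region within 5 kb of a gene of the Fat, Dachsous and Hippo list; point area grows with CPM. Fat1 (red) holds the 2 called regions, and the other genes (grey) hold 0.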

How the data were processed

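H3K9me3 ChIP-seq of Tex19.1-/- and Tex19.1+/- embryonic stem cells was analysed from a single table deposited by the authors, with 68291 regions and 1 comparison. Its columns, per the file headers, are the coordinates of each region, the log2 fold change, the average log2 CPM, the p-value and the FDR. The tools listed by the submitters' processing notes are HOMER 4.8, edgeR, Bowtie2 2.2.6 and bedtools 2.25.0, on mm10, with no role given. Not given in the sources used here are the libraries that entered the comparison, the use of input and how regions were defined. Over all regions the average CPM summed to 1.08e+06, about what scaling each library to its reads inside the regions would give. With such scaling a shift of the mark at every region at once would be invisible. A change in some regions could also move the values of others.

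The deposited FDR was checked by adjusting the p-values after Benjamini and Hochberg, which differed by at most 3.2e-05 and gave the same 192 calls. To derive an SE, the size of the log2 fold change was divided by the standard normal quantile matching the 2-sided p-value, if at least 1. Otherwise the median SE of regions of like log2 CPM (bins of 0.5) was taken. It inherits the authors' model and may leave out variation between libraries. Widths are end minus start. The script was tested on simulated data (Python 3.11.15, scipy 1.17.1, pandas 2.3.3). Genes and promoters came from RefSeq GRCm38.p6, and all 37 pathway genes matched by symbol.

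The named regions are all 10 of the window, the strongest, nearest and smallest-p regions of the flanks, and those of the pathway list. Other regions named, and the rankings over promoters and genes, were picked with their values in view. The locus, the lists and the tests were chosen with earlier results of these data known.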

Additional observations from a re-analysis of the deposited data

How the results depend on the processing

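No paired analysis was possible because the table holds no values of single libraries, and leaving out each replicate was not run for the same reason. The 2 called Fat1 regions became 1 at an FDR below 0.01, 1 under Holm adjustment and 1 without chromosomes 11 and 16. They also became 1 in a normal approximation that used the median SE of like signal, an alternative chosen after seeing the data. In each case the region over the listed start site remained, with an adjusted p of at most 3.54e-11 over all 7 adjustments, and the region chr8:45023892-45025101 was lost. For that region the adjusted p ranged from 0.0174, without regions shorter than 1000 bp, to 1, under Holm adjustment. In the pathway list the 2 calls became 1 at an FDR below 0.01 and were 2 with gene bodies alone and with 10000 bp on either side. Subtraction of the chromosome, flank or like-signal median moved none of the 10 Fat1 values by more than its derived SE and turned no sign. The flank median of -0.10 was -0.14 with flanks of 0.5 Mb, -0.08 with 2 Mb and -0.12 without regions below a log2 CPM of 2. Signal limits precision at the weak Fat1 regions, where the derived SE was 0.39 to 0.74, against 0.12 at the 2 strong ones.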

Other observations

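Over whole genes, Fat1 had the second highest signed median of 969 protein-coding genes whose bodies hold at least 5 regions. Its median over 7 regions was 0.95, and the median over all such genes was 0.01. Each region has equal weight here, and 5 of the 7 were weak, with a log2 CPM below 3. The Fat1 median is the value of the uncalled weak region chr8:45012872-45013642 (6.32 CPM, FDR 0.958), while the second strongest region stood at 0.19. Cpped1 on chromosome 16, where the median of all regions was 0.32, was higher at 0.98 over 5 regions. Since the direction of the sign is unknown, the other end counts as well. The lowest gene median was -0.63, so that by size Fat1 was again at rank 2. With each chromosome's median subtracted Fat1 ranked first at 1.03, also by size, with 0.73 as the next highest and -0.95 as the lowest value. Outside chromosomes 11 and 16, 17 of 886 such genes had every region positive, Fat1 among them. Of the 969 genes, 3 held at least 2 called regions, namely Fat1, Zfp462 and Prn. Zfp462 is a zinc finger gene on chromosome 4 (9 regions, median 0.71). Prn (5 regions, median 0.65) shares a called region with the prion gene Prnp. The ranking uses the values by which Fat1 was chosen and so describes them without a test.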
